A study of Mus musculus with 6 samples.

Results

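A set of 6 genes of the chitinase-like family and of the alternative activation of macrophages was followed in the lungs of mice with an active human SRY transgene. They were Chi3l3, Chi3l4, Chi3l1, Chia, Arg1 and Retnla, taken by their symbols on the array, and all their probes were used, 9 of the 25697 on the array. Chi3l3 was picked because it rose strongly in these same lungs, so its levels are given as a description with no test. The other 5 genes were picked by name and role. Gene expression was measured on Illumina BeadChips in male mice of the strain FVB (FVB/N in the methods of the study) at postnatal day 6, with 3 lungs in each group and 1 array for each lung. In hSRY-ON lungs a FLAG-tagged human SRY gene was driven by the broadly active CAG promoter, after Cre recombinase left in the egg of a Ddx4-Cre mother had removed the DsRed2 gene in front of it. The activated cassette also encodes EGFP. The hSRY-ON mice chosen for the arrays did not carry the Ddx4-Cre transgene themselves. In the study, hSRY-ON pups grew more slowly than control littermates and lacked milk in the stomach, and some had died by postnatal day 6. The hSRY-OFF label stands, in the methods of the study, for mice that carry the same transgene unrecombined, whereas its controls elsewhere were littermates without the transgene. The transgene was a single insertion at the H11 locus, so the groups describe 1 transgenic line. Labels do not say whether the mice came from separate litters.

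Chitinases cut chitin, a polymer of fungi, insects and worms that mammals do not make. Chitinase-like proteins share the fold but have lost the enzyme activity. Chi3l3, now named Chil3 and known as Ym1, is secreted by mouse macrophages and neutrophils, and Chi3l4, now Chil4 or Ym2, is its close paralogue, known from allergic airways. Chi3l1, now Chil1 or BRP-39, is another chitinase-like protein, made by macrophages, neutrophils and epithelium. Chia, now Chia1, is the acidic mammalian chitinase, an active enzyme made in the lung by epithelial cells and also abundant in stomach. Arg1, which turns arginine into ornithine and urea, and Retnla, the secreted protein RELM-alpha or Fizz1, are, together with Ym1, the textbook markers of macrophages exposed to the type 2 cytokines IL-4 and IL-13. These cytokines signal through receptors that contain Il4ra and activate the transcription factor Stat6.

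Chi3l3, Chi3l4 and Chia lie side by side on mouse chromosome 3, within 106.1 kb of the GRCm38.p6 assembly and with no other annotated gene of that table lying wholly between them. The sequences just upstream of the Chi3l3 and Chi3l4 starts are shown because these genes are near copies of each other while their probes behaved differently. In the 250 bases before each start, the 2 genes shared an alignment of 222 columns, of which 201 (90.5%) were identical. The best local alignment with the window of Chi3l3 held 86 identical bases for Chia, 45 for Chi3l1 and 20 for Retnla, against 201 for Chi3l4. The sequences are from RefSeq (GRCm38.p6, minus strand), at chr3:106167565-106167785 for Chi3l3 and chr3:106219508-106219728 for Chi3l4. They are written 5′ to 3′, and capitals mark the bases at which the aligned genes differ.
Chi3l3: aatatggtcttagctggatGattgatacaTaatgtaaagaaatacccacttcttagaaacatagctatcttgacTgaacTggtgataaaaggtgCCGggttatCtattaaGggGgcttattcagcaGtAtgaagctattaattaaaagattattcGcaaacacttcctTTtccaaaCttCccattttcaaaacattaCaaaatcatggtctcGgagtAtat
Chi3l4: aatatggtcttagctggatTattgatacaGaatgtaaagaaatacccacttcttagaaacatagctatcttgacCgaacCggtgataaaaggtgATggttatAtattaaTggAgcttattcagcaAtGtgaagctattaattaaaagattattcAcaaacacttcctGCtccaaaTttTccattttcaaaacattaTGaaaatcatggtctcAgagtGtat
Both hold the letters TTCTTAGAA, a match to TTCNNNGAA, one form of the sites that STAT factors bind. It begins 172 bases before the start of Chi3l3 and 200 bases before that of Chi3l4. TTCNNNGAA was found on either strand in 7.02% of the 32851 upstream windows of this length. The longer form, with 1 more base between TTC and GAA and found in 5.85% of windows, was present in the window of Retnla but not in those of the 4 chitinase family members. Windows were in the table for 5 of the 6 genes, Arg1 being the exception. A match of letters is not evidence of binding.

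Intensities are given on a log2 scale after background correction and quantile normalization, so that 1 unit is a doubling. Probes cannot be ranked against each other by level. A probe was called detected on an array when its detection p, set against the negative control probes, was under 0.05. Of the 9 probes, 8 passed the filter of detection on at least 3 of the 6 arrays, and that of Chi3l4 did not. Between 13191 and 14134 probes were detected on each array. Across the tested probes, the mean correlation of an array with the others of its group was 0.992 to 0.993 in hSRY-OFF and 0.974 to 0.978 in hSRY-ON, and the median SD of a probe was 0.130 and 0.223. Surfactant and secretoglobin genes that define lung, such as Sftpc, Sftpb and Scgb1a1, were detected on all 6 arrays. Because whole lungs were sampled, more cells of a type and more RNA in each cell cannot be told apart.

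Chi3l3 was far higher in hSRY-ON lungs on all of its 3 probes. On ILMN_2712986 the intensities were 8.93, 7.65 and 8.92 in hSRY-OFF replicates 1 to 3 and 12.67, 13.32 and 10.79 in hSRY-ON replicates 1 to 3. Every hSRY-ON lung lay above every hSRY-OFF lung, and the lowest hSRY-ON value, that of replicate 3, was well below the others. Groups did not overlap on 46.6% of all tested probes. The group means were 8.50 ± 0.73 (SD, n = 3) and 12.26 ± 1.32 (SD, n = 3), a difference of 3.76 or 13.6-fold. ILMN_3043036 read 7.01, 6.01 and 6.93 in hSRY-OFF and 10.53, 11.20 and 8.13 in hSRY-ON lungs, a difference of 3.30 or 9.88-fold. ILMN_3117876 read 6.89, 4.99 and 6.93 in hSRY-OFF and 10.93, 11.10 and 7.95 in hSRY-ON lungs, a difference of 3.72 or 13.2-fold. The last of these did not exceed background in hSRY-OFF replicate 2, where it read 4.99, and was detected on the other 5 arrays. All 3 probes gave the same picture, with the lowest hSRY-OFF lung in replicate 2 and the lowest hSRY-ON lung in replicate 3. Without background correction the differences were 3.32, 2.30 and 2.46 for ILMN_2712986, ILMN_3043036 and ILMN_3117876.

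**Figure D1:**
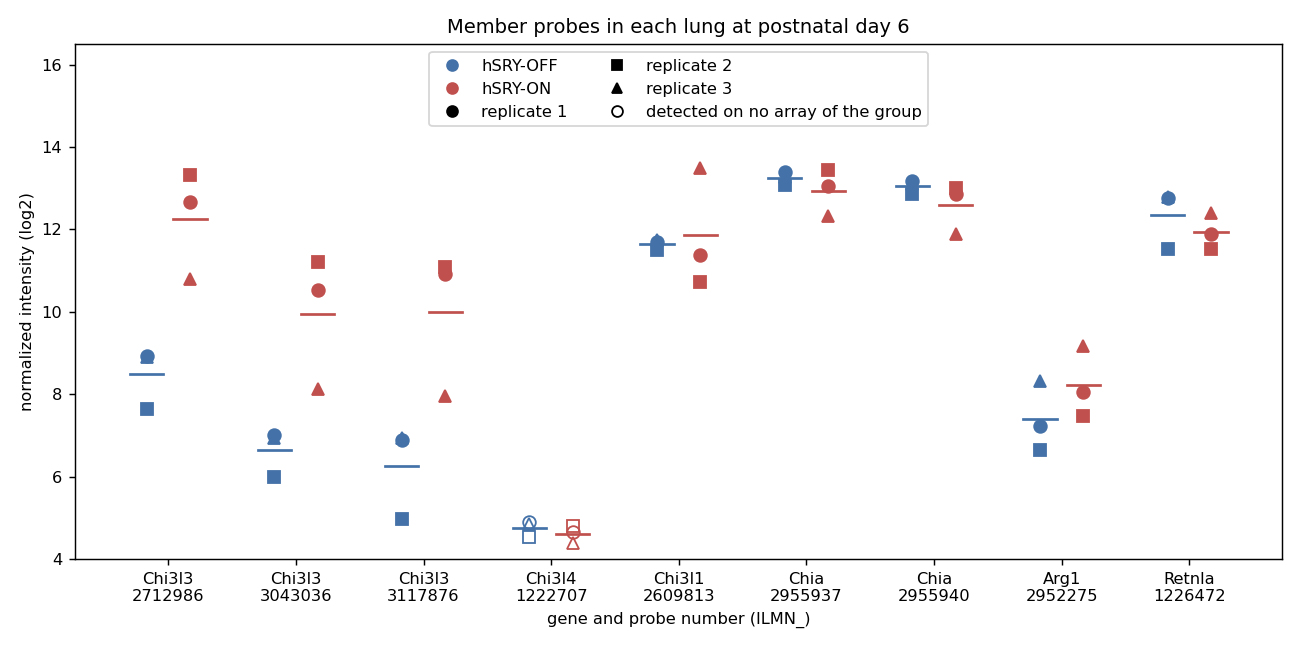
Normalized log2 intensity (vertical axis) of the 9 probes of the 6 genes (horizontal axis) in each lung, with 3 hSRY-OFF lungs in blue, 3 hSRY-ON lungs in red, a symbol for each replicate and a bar at each group mean. The 3 probes of Chi3l3 do not overlap between groups, as 46.6% of all tested probes do not. The open symbols of Chi3l4 lie at background, and the groups overlap for Chi3l1, Chia, Arg1 and Retnla.

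Chi3l4 was not detected in any lung. Its single probe (ILMN_1222707) read 4.89, 4.53 and 4.85 in hSRY-OFF and 4.65, 4.80 and 4.41 in hSRY-ON lungs. These values are background in both groups, and no fold change is given. The table gives no probe sequences, so whether any probe also binds the transcript of the paralogue was not tested. In the hSRY-ON lungs with a Chi3l3 intensity of 12.67 and 13.32, the Chi3l4 probe stayed at background.

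None of Chi3l1, Chia, Arg1 and Retnla passed the test between the groups. Of their 5 probes, 0 passed an adjusted p of 0.05 and 0 had an unadjusted p under 0.05 (limma), whereas 26.9% of all 13841 tested probes passed, made up of 13.6% higher and 13.3% lower in hSRY-ON. The groups overlapped on all 5 probes, against 46.6% of all tested probes on which they did not.

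For Chi3l1 the group means hid a wide spread. Its probe (ILMN_2609813) read 11.69, 11.49 and 11.74 in hSRY-OFF and 11.39, 10.73 and 13.49 in hSRY-ON lungs. The hSRY-OFF lungs were nearly alike, while hSRY-ON replicates 1 and 2 lay below all of them and replicate 3 far above. The log2 difference of the means was 0.23 ± 0.63 (SE, limma, adjusted p = 0.815), and without hSRY-ON replicate 3 it was -0.59 (limma, adjusted p = 0.0956). In replicate 3 the intensity was 5.38-fold that of the other hSRY-ON lungs, taken at their mean log2 level. The SD of Chi3l1 in hSRY-ON, 1.44, was larger than that of 99.9% of tested probes, but its SD in hSRY-OFF, 0.132, was larger than that of only 50.8%.

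Chia, the active chitinase, was detected in every lung at this age. ILMN_2955937 read 13.38, 13.07 and 13.27 in hSRY-OFF and 13.04, 13.44 and 12.32 in hSRY-ON lungs. ILMN_2955940 read 13.17, 12.86 and 13.11 in hSRY-OFF and 12.86, 13.00 and 11.90 in hSRY-ON lungs. On both probes hSRY-ON replicate 3 was the lowest of the 6 lungs and the other hSRY-ON lungs lay within or near the range of hSRY-OFF. The log2 differences were -0.31 ± 0.27 (SE, limma, adjusted p = 0.438) and -0.46 ± 0.29 (SE, limma, adjusted p = 0.273). Leaving out hSRY-ON replicate 3 brought them to 0.00046 and -0.11.

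Arg1 was detected in every lung. Its probe (ILMN_2952275) read 7.23, 6.65 and 8.31 in hSRY-OFF and 8.05, 7.47 and 9.17 in hSRY-ON lungs. Both groups had their lowest lung in replicate 2 and their highest in replicate 3, and their ranges overlapped. The log2 difference was 0.83 ± 0.53 (SE, limma, adjusted p = 0.283).

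Retnla varied more among hSRY-OFF than among hSRY-ON lungs, with SDs of 0.72 and 0.45. Its probe (ILMN_1226472) read 12.77, 11.52 and 12.79 in hSRY-OFF and 11.88, 11.52 and 12.41 in hSRY-ON lungs. The hSRY-OFF lung of replicate 2 was 2.40-fold below the highest of its group and level with the lowest hSRY-ON lung. The log2 difference was -0.42 ± 0.38 (SE, limma, adjusted p = 0.439), and -0.85 without hSRY-OFF replicate 2 (limma, adjusted p = 0.0936). The 3 textbook markers of alternative activation had log2 differences of 3.76 for Chi3l3 (ILMN_2712986), 0.83 for Arg1 and -0.42 for Retnla. Arg1 and Retnla did not pass, and Chi3l3 was not tested.

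Among the hSRY-ON lungs the genes fell into contrasting patterns. Replicate 3 had the lowest intensity of Chi3l3 and Chia and the highest of Chi3l1, Arg1 and Retnla. Relative to the mean log2 level of the other hSRY-ON lungs, its intensity was 0.217 times as high for Chi3l3 (ILMN_2712986) and 0.529 and 0.490 times for Chia, but 5.38 times for Chi3l1, 2.66 times for Arg1 and 1.64 times for Retnla. The same lung did not stand apart over the whole array, with 34.6% of tested probes highest and 30.9% lowest among the 3 hSRY-ON lungs. These are values of single mice and were not tested.

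Several markers of cells that make these proteins differed between the groups. Of 12 macrophage genes, 11 were on the array, 9 were tested and 6 rose in hSRY-ON (limma), Marco, Cd33, Mertk, Cd14, Cd68 and Lyz2. The called probes were 50% of those tested, all higher. Over all tested probes 26.9% were called in either direction and 13.6% higher. The summed linear intensity of all probes of the list was 23280 to 25640 in hSRY-OFF and 32890 to 39280 in hSRY-ON lungs. Lyz2, a lysozyme that alveolar type II cells also make, gave 79.5% to 91.1% of that sum. Without it the sum was 2191 to 2324 in hSRY-OFF and 4545, 8036 and 5451 in hSRY-ON replicates 1 to 3. Csf1r, Emr1 and Fcgr1 were tested and did not pass. Marco, a scavenger receptor, rose by 2.56 on the log2 scale (limma, adjusted p = 0.00642). Mertk, a receptor for dying cells, rose by 1.78 (limma, adjusted p = 0.00196). The probes of Itgax and Siglec5 were not detected in any lung of either group, so they allow no comparison. All 10 neutrophil genes were on the array, 7 were tested and 4 rose, Lcn2, Ltf, S100a8 and S100a9, or 57.1% of the tested probes. Ngp, Camp and Csf3r were tested and did not pass. Ngp read 7.18 to 7.61 in hSRY-OFF and 6.19, 8.35 and 10.57 in hSRY-ON replicates 1 to 3. Camp read 7.10 to 7.81 in hSRY-OFF and 6.70, 8.13 and 10.25 in hSRY-ON replicates 1 to 3. The 10 genes summed to 8121 to 8402 in hSRY-OFF and 15940, 19550 and 44220 in hSRY-ON replicates 1 to 3, and the probes of Ela2 and Il8rb were not detected. The hSRY-ON lung with the highest neutrophil sum was thus replicate 3, the one with the highest Chi3l1 and the lowest Chi3l3. The part of these cells in the levels of the 6 genes was not tested.

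**Figure D2:**
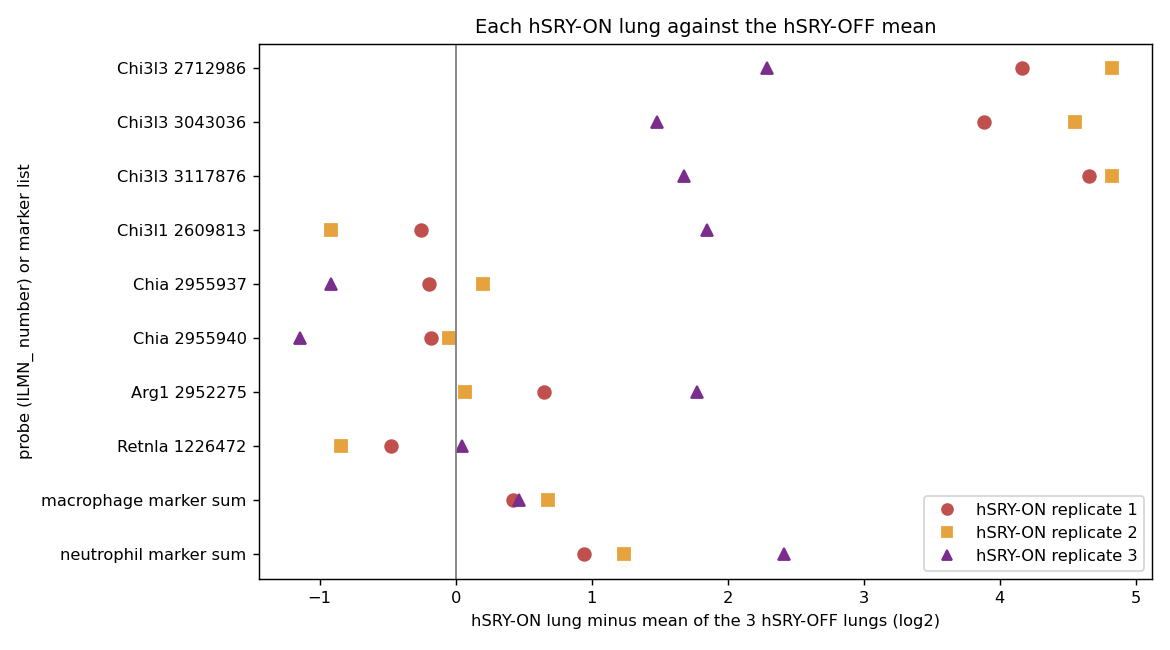
Each hSRY-ON lung (a colour and symbol for each replicate) minus the mean of the 3 hSRY-OFF lungs on the log2 scale (horizontal axis), for the 8 detected probes and for the summed intensity of the macrophage and neutrophil marker lists (vertical axis), the first mostly Lyz2. All points of Chi3l3 lie at 1.48 or more, and replicate 3 is lowest for Chi3l3 and Chia and highest for Chi3l1, Arg1, Retnla and the neutrophil sum.

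Other sources were examined in the same way. Of 9 eosinophil, mast cell and basophil genes on the array, 4 were tested on 5 probes. Of these probes 2 (40%) were called, against 26.9% of all tested probes. Mcpt4 fell by 1.32 and Mcpt6 rose by 0.94 on the log2 scale (limma, adjusted p = 0.0147 and 0.0481). Epx, Ccr3, Il5ra, Mcpt8 and Ms4a2 were not detected. The list summed to 558.8 to 896.0 in hSRY-OFF and 549.4 to 788.8 in hSRY-ON lungs. Prg2, a granule protein of eosinophils, read 5.95, 6.28 and 7.37 in hSRY-OFF and 4.71, 4.76 and 5.91 in hSRY-ON lungs and did not pass (limma, adjusted p = 0.0568). Liver makes much Arg1. The liver enzymes Cps1 and Otc and the plasma protein Alb were not detected in any lung. Of the 8 liver genes 2, Ahsg and Apoa1, passed the filter, through hSRY-ON alone, so that they had to be higher there. The list summed to 285.0 to 309.2 in hSRY-OFF and 378.4 to 745.5 in hSRY-ON lungs. Stomach makes much Chia. Of 8 gastric and salivary genes on the array 5 were not detected, among them Gkn1, Atp4a and Atp4b. Of the 3 tested probes 1 (33.3%), that of Gif, fell (limma, adjusted p = 0.00758). That list summed to 1338 to 1551 in hSRY-OFF and 377.8 to 1136 in hSRY-ON lungs, and Gif gave 24.7% to 77.3% of the sum. Without Gif the groups overlapped, at 313.2 to 445.6 in hSRY-OFF and 188.9, 290.6 and 781.9 in hSRY-ON replicates 1 to 3. The 9 epithelial genes were all tested, 5 rose and 0 fell (limma). The called probes were 46.2% of the 13 tested, against 26.9% of all tested probes. These genes summed to 108200 to 115800 in hSRY-OFF and 130300 to 147600 in hSRY-ON lungs. The part of these cells in the results was likewise not tested.

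The genes around these 6 were read from 7 lists of 85 genes. Of these, 82 were on the array, and 64 probes for 44 genes were tested. Among the 64 probes 7 (10.9%) were called higher and 14 (21.9%) lower in hSRY-ON (limma), against 13.6% and 13.3% of all tested probes. The median change was -0.00996 on the log2 scale, against -0.03 over all tested probes.

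Relatives of these genes were mostly not detected. Of 4 further chitinase family genes on the array, Chit1, Ctbs and Bclp2 (now Chil5) were not detected in any lung, and Chid1 has no probe under that name. Ovgp1, an oviduct glycoprotein of the same family, was tested on 1 probe and did not pass (log2 change of 0.90, limma, adjusted p = 0.0582). Of the 3 resistin genes beyond Retnla, Retn was not detected and neither of the others passed. Retnlg, a resistin-like protein of neutrophils, read 9.05, 8.56 and 8.89 in hSRY-OFF and 9.12, 10.35 and 12.21 in hSRY-ON lungs. All hSRY-ON values lay above hSRY-OFF, yet the change of 1.73 did not pass (limma, adjusted p = 0.106), and its highest value was again in hSRY-ON replicate 3.

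The ligands of the type 2 pathway gave little signal. Of 9 ligand and alarmin genes, 5 were not detected in any lung, among them Il4, Il25 and Tslp, and Il5 was detected on 1 hSRY-OFF array. Il13 was detected in every lung and read 6.07, 6.48 and 6.53 in hSRY-OFF and 6.52, 6.50 and 5.91 in hSRY-ON lungs, a log2 change of -0.05 (limma, adjusted p = 0.883). Il33, the epithelial alarmin that drives type 2 lymphoid cells, read 9.41, 9.30 and 9.44 in hSRY-OFF and 9.07, 8.62 and 8.71 in hSRY-ON lungs. Every hSRY-ON lung was below the others, and the change of -0.59 passed (limma, adjusted p = 0.0285). It was the only one called of the 3 that were tested (33.3%, against 26.9% of all tested probes), the third being Csf1.

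Of 14 receptor and signalling genes on the array, 9 were tested on 16 probes, and 2 were called higher and 1 lower. These 3 probes are 18.8% of those tested, below the 26.9% over all probes. Il13ra1, the receptor chain that pairs with Il4ra to bind IL-13, rose by 0.62 on the log2 scale, from 9.43 to 9.59 in hSRY-OFF to between 9.94 and 10.24 in hSRY-ON (limma, adjusted p = 0.0147). Irs2, an adaptor of the insulin and IL-4 receptors, rose by 1.12 (limma, adjusted p = 0.0380). Il2rg, the common gamma chain of the lymphocyte form of the IL-4 receptor, fell by 0.86 (limma, adjusted p = 0.00630). Il4ra was not detected in any lung. Stat6 did not pass on either tested probe, with a change of 0.32 on ILMN_2897230 (limma, adjusted p = 0.191) and -0.36 on ILMN_2593254 (limma, adjusted p = 0.344).

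Of 22 further genes of alternative activation, 9 were not detected in any lung, among them Clec10a (named Mgl1), Msr1, Ccl22 and Mmp12. Of the 9 that were tested 2 rose and 2 fell, or 4 of 12 probes (33.3%), against 26.9% of all tested probes. Mrc1, the mannose receptor CD206, read 10.90, 10.78 and 11.00 in hSRY-OFF and 11.74, 12.47 and 11.79 in hSRY-ON lungs. The groups did not overlap and the change of 1.11 passed (limma, adjusted p = 0.0105). Tgm2, the tissue transglutaminase, rose by 0.40 (limma, adjusted p = 0.0365). The transcription factors Egr2 and Klf4 fell by 0.41 and 0.71 on the log2 scale (limma, adjusted p = 0.0409 and 0.0399), with 1 of 3 Klf4 probes called and all 3 below 0. Ccl24, an eosinophil chemokine made by such macrophages, did not pass, at -0.29 (limma, adjusted p = 0.422).

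Of the tested probes of the 7 lists, Arg2 had the largest difference under the settings used here, but Retnlg exceeded it without background correction (1.51 against 1.11) and without hSRY-ON replicate 1 (2.44 against 2.34). Arg2, the mitochondrial arginase, read 5.90, 5.26 and 5.95 in hSRY-OFF and 8.23, 8.16 and 7.88 in hSRY-ON lungs. All hSRY-ON lungs were close together and well above hSRY-OFF, a change of 2.39 ± 0.21 or 5.24-fold (SE, limma, adjusted p = 0.00106). Arg1, the cytosolic arginase, had a difference of 0.83 that did not pass, and the difference between the arginases was not tested. Of 17 genes on the array 12 were tested, and 2 rose and 5 fell, or 11 of 17 probes (64.7%), against 26.9% over all probes. The arginine transporter Slc7a2, outside the naming rule and added after its values were seen, was the other rise, at 0.96 (limma, adjusted p = 0.0355). Among the falls were genes on the way from ornithine to polyamines, Odc1 at -0.65 and spermidine synthase Srm at -1.15 (limma, adjusted p = 0.0210 and 0.00250). All 3 of 3 Srm probes were called. Of the same list, Sms was not detected, Sat1 had no probe under that name and Azin1 did not pass (limma, adjusted p = 0.951). Aldh18a1, which makes precursors of proline and ornithine, changed by -1.04 (limma, adjusted p = 0.00856). Nos3, the endothelial nitric oxide synthase, which uses the same substrate as arginase, changed by -1.12 on the probe of smallest p (limma, adjusted p = 0.0127), and 3 of 3 probes were called. Ddah2, which clears inhibitors of nitric oxide synthases, changed by -0.92 (limma, adjusted p = 0.0203).

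Classical activation is the counterpart driven by interferon and bacterial products. Of 13 of its genes 8 were tested on 13 probes, 1 rose and 1 fell, which is 15.4% of the probes against 26.9% over all probes. Il1b rose from between 7.10 and 7.34 in hSRY-OFF to between 7.92 and 8.76 in hSRY-ON, a change of 1.19 (limma, adjusted p = 0.0101). The chemokine Ccl5 fell by 1.41 on the log2 scale (limma, adjusted p = 0.0183). It was near background in hSRY-ON, at 5.48, 4.95 and 5.93, and its change was -0.50 without background correction. Nos2, the inducible nitric oxide synthase and the usual opposite of Arg1, did not pass (change of -0.32, limma, adjusted p = 0.273). Il6, Il12b and Ptgs2 were not detected in any lung.

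**Figure D3:**
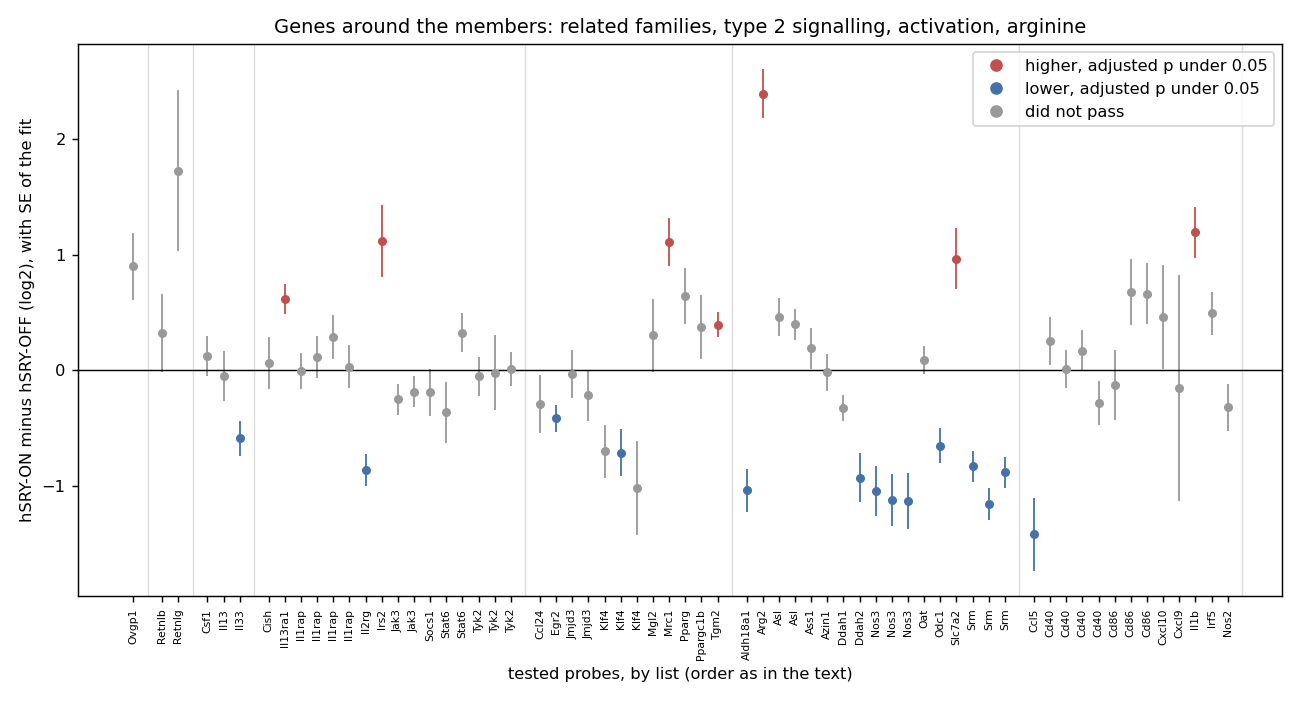
Log2 change between hSRY-ON and hSRY-OFF lungs (vertical axis), with the standard error of the limma fit as bars, for the 64 tested probes of the 7 lists (horizontal axis), 3 lungs in each group. Red and blue points passed an adjusted p of 0.05 and grey points did not, with Arg2 the highest at 2.39 and Ccl5 the lowest at -1.41.

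Of the 17 genes named from these lists that passed, Slc7a2 included, 6 did so under all 16 alternative settings that kept the threshold, namely Arg2, Srm, Aldh18a1, Mrc1, Il2rg and Il1b. Leaving out an array ended 10 of the other calls without hSRY-OFF replicate 1 (Il33, Il13ra1, Irs2, Tgm2, Klf4, Egr2, Nos3, Ddah2, Odc1 and Slc7a2, adjusted p = 0.0508 to 0.112) and 10 without hSRY-OFF replicate 2 (the same genes with Ccl5 in place of Il13ra1, adjusted p = 0.0509 to 0.154). It ended 10 without hSRY-OFF replicate 3 (Il33, Il13ra1, Irs2, Tgm2, Klf4, Egr2, Ddah2, Odc1, Ccl5 and Slc7a2, adjusted p = 0.0586 to 0.0972) and 7 without hSRY-ON replicate 2 (Il33, Tgm2, Klf4, Egr2, Ddah2, Odc1 and Ccl5, adjusted p = 0.0509 to 0.111). Without hSRY-ON replicate 3 the calls of Il33, Tgm2, Klf4 and Egr2 were lost (adjusted p = 0.0573 to 0.0757), and without hSRY-ON replicate 1 that of Klf4 (limma, adjusted p = 0.0558).

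The probes most like Chi3l3 over the 6 lungs were those of Tmprss2, Cbx7, Adora2b, Erlin1 and D10Ertd641e, with Pearson r from 0.993 to 0.995 against ILMN_2712986. Such values are common, since 350 tested probes outside the set had an r over 0.95, and r over 6 lungs in 2 separate groups partly follows the group difference. With the group means removed, r for these probes was still 0.959 to 0.985, though they were picked for a high r. Their own changes were smaller than that of Chi3l3, between 0.39 and 1.29 on the log2 scale.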

How the data were processed

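Total RNA of 6 lungs, 3 for each group, was turned into biotin-labelled cRNA and read on MouseRef-8 v2.0 arrays. The authors deposited 1 table with an intensity (mean bead signal) and a detection p-value for each probe and array, neither background-corrected nor normalized. The bead summary software is not given in the sources used here. The study used TCC, a method for counts; as the deposited values are intensities, limma 3.58.1 in R 4.3.3 was used. The normexp background was inferred from negative controls through the detection p-values, with an offset of 16 before quantile normalization and log2, which compresses dim probes. The 13841 of 25697 probes detected (p under 0.05) on 3 or more arrays were tested with lmFit and eBayes without covariates, two-sided, with Benjamini-Hochberg adjustment over all of them. An exact permutation test of 3 against 3 arrays cannot go below p = 0.1.

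Members, lists, naming rule and alternatives were chosen with earlier results of these data known. The text names all member probes, up to 6 called genes of each list by smallest p, and 11 fixed genes. A gene was taken out of the classical activation list, with its counts, and is not reported here. List symbols were matched through RefSeq synonyms. The fit was tested on simulated data. Other background corrections, normalizations, filters, variance models, array weights, a replicate block and leaving out each array were tried. P-values set the group difference against the spread between these samples, which may be partly technical.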

Additional observations from a re-analysis of the deposited data

How the results depend on the processing

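All 3 Chi3l3 probes stayed higher in hSRY-ON under the 16 alternatives run. Their log2 changes were 3.21 to 4.48, 2.30 to 4.20 and 2.46 to 4.73 for ILMN_2712986, ILMN_3043036 and ILMN_3117876. Chi3l3 was picked for this rise, so its steady sign carries no weight as a test. The filters, the variance trend and the replicate block cannot alter a difference of means. Leaving out arrays gave changes of -0.59 to 0.80 for Chi3l1, and of -0.56 to 0.00046 (ILMN_2955937) and -0.66 to -0.11 (ILMN_2955940) for Chia, of 0.36 to 1.29 for Arg1 and of -0.85 to -0.21 for Retnla, where Chi3l1 and the first Chia probe took the other sign without hSRY-ON replicate 3. Il13 took the other sign without hSRY-OFF replicate 2 (0.010), hSRY-OFF replicate 3 (0.039) or hSRY-ON replicate 3 (0.15), from -0.19 to 0.15 over all arrays left out. The cause was not tested. Fitting the replicate number as a block called 1 probe of the set, Arg1, at 0.83 (limma, adjusted p = 0.0179), whereas its adjusted p without the block ranged from 0.129 to 0.614. Deviations of same-numbered arrays correlated weakly (r = -0.107, 0.0957 and -0.0927). Both arrays numbered 2 were each other's best partner, while 1 and 3 correlated best with each other across groups. With 3 arrays in each group these values cannot show whether same-numbered arrays were paired, and the labels do not say. With the block 2655 probes were called, against 3728 without, and it ended 5 calls of named genes. The count of all calls was 1504 to 4384 with an array left out and 1326 at an adjusted p under 0.01. Of the list probes, 3 to 11 were called higher and 5 to 15 lower with an array left out, and 1 and 5 at an adjusted p under 0.01. Egr2 also lost its call without background correction, with an offset of 50, with cyclic loess and with a variance trend, and so did Klf4, Irs2 and Slc7a2 without the filter, Klf4 with array weights (limma, adjusted p = 0.0653) and Slc7a2 without background correction. Retnlg passed with array weights (limma, adjusted p = 0.0385) and without hSRY-ON replicate 1 (adjusted p = 0.0157). Signals near background limit Chi3l4, Il13, Nos2, Arg2 and Slc7a2 in hSRY-OFF, Ccl5 in hSRY-ON and the Stat6 probe ILMN_2593254.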

Other observations

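Airway secretory genes that are known targets of IL-13 were looked at after their values had been seen, so they carry no weight as a test. The mucus-linked gene Clca3 (ILMN_2690676) read 8.98, 7.86 and 9.74 in hSRY-OFF lungs and was not detected in any hSRY-ON lung. Slc26a4, the anion exchanger pendrin, read 7.79, 6.06 and 8.0 in hSRY-OFF and 5.41, 5.74 and 6.37 in hSRY-ON lungs. Itlnb, an intelectin that binds microbial sugars, read 8.99, 7.82 and 9.02 in hSRY-OFF and 5.33, 6.36 and 8.08 in hSRY-ON lungs. All 3 were thus lower on average in hSRY-ON. The groups overlapped for Slc26a4 and Itlnb, which did not pass (limma, adjusted p = 0.0781 and 0.0650). Clca3 passed the filter through hSRY-OFF alone, so that it had to be lower in hSRY-ON. Within hSRY-OFF, these 3 genes had their lowest value in replicate 2, as had every probe of the set, with that of Chi3l4 at background.

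Genes of the set were among the most variable of the control lungs. Of the 25 tested probes with the largest SD in hSRY-OFF, 4 belonged to it, 2 probes of Chi3l3 with SDs of 1.11 and 0.73, Arg1 with 0.85 and Retnla with 0.72 on the log2 scale. Of these 25 probes, 10 were lowest in replicate 2, 10 in replicate 1 and 5 in replicate 3, and 31.4% of all tested probes were lowest in replicate 2. In hSRY-ON the SD of Retnla was 0.62 times that in hSRY-OFF, whereas that of Chi3l1 was 10.9 times as large. With 3 lungs in each group these spreads were not tested.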
